A study of Mus musculus with 4 samples.

Results

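The complement and coagulation genes of the liver were examined in 4 RNA-seq libraries from *Usp21* KO mice and their WT littermates. *Usp21* encodes a deubiquitinating enzyme. The members are 45 genes taken by symbol from the deposited table of 35739 genes, 22 of the complement system and 23 of coagulation and fibrinolysis. The KO mice (replicates 1 and 3) carried a constitutive KO allele of *Usp21*, targeted in 129/Sv ES cells, from which Cre had removed exons 3 and 4 in all tissues. WT mice (replicates 2 and 3) and KO mice were littermates of a cross of B6 mice with mixed-background B6 × 129/Sv carriers of that allele, and all were 10 to 11 weeks old on a normal diet, with 1 library of whole liver per mouse. Transcripts of 4 Y-linked genes (*Ddx3y*, *Kdm5d*, *Eif2s3y* and *Uty*) were present in every library.

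The liver supplies most of the complement and clotting proteins of blood plasma, and hepatocytes secrete them without stimulation. Complement is started on antibodies by C1, on microbial sugars by mannose-binding lectins, or directly by the alternative pathway. Each route builds convertases that cut C3 and C5, after which C5b assembles with C6 to C9 into a pore in the target membrane. Coagulation is a chain of proteases that ends in thrombin, which turns fibrinogen into fibrin, and plasmin later dissolves the clot. Fibrinogen and several complement genes are also classical acute phase genes, which hepatocytes induce through IL-6 and STAT3.

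Expression was given in TPM (transcript abundance corrected for transcript length, so that levels of different genes can be compared). *Usp21* itself had 4.07 and 6.29 TPM in the WT mice, against 1.64 and 2.93 TPM in the KO mice, so the groups did not overlap, while its log2 fold change of -0.92 had an adjusted p of 0.464 in limma. Liver identity was clear in every library: *Alb* (albumin) lay between 27480 and 43180 TPM, the pancreas markers were near 0, and the tested hepatocyte markers numbered 9 of 10 listed. TPM carries no read number. A second deposited table, in CPM, corresponds to 102898 to 148164 reads per library, and 24 of the 45 members are listed there at 0 in all 4 libraries, so TPM was used for what follows. Log2 fold changes are KO minus WT on log2(TPM + 1), and a gene was called where limma's Benjamini-Hochberg adjusted p over the 9581 genes tested was under 0.05.

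Libraries differed in ways that bear on the members. KO replicate 1 had the highest TPM of the 4 libraries for 45.9% of all genes tested, and the median log2 fold change of all genes was 0.15, a shift that vanished (0.00) when the libraries were scaled to equal upper quartiles. WT replicate 3 stood apart in several, not all, inducible acute phase genes: *Saa1*, encoding serum amyloid A, was at 1089 TPM there and at 47.9, 162 and 135 TPM in WT replicate 2 and KO replicates 1 and 3. Because whole liver was sequenced, fewer cells of a type and less RNA per cell cannot be told apart.

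None of the members was called. Of the 44 tested, 0 had an adjusted p under 0.05, against 0.0835% of all genes tested, and the lowest adjusted p among members was 0.464. At an unadjusted p under 0.05, 1 member (*C6*) was higher in KO and 0 were lower, against 8.45% and 2.04% of all genes tested. On the reads of the CPM table, edgeR and DESeq2 called 0 members. There 24 of the 45 are at 0 throughout and were not tested, and none has more than 10 reads in a library, so this 0 says little. With 2 libraries a group, limma's p-values rest on the spread between these 4 mice and on variance borrowed from other genes (prior degrees of freedom 3.62). The fold changes of the members had a median standard error of 0.19, against 0.26 over all genes. No member reached a 2-fold difference in either direction, against 353 of all 9581 genes tested. The members' median log2 fold change was 0.08, below the median of all genes, with 15 members above that median and 29 below it.

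**Figure D1:**
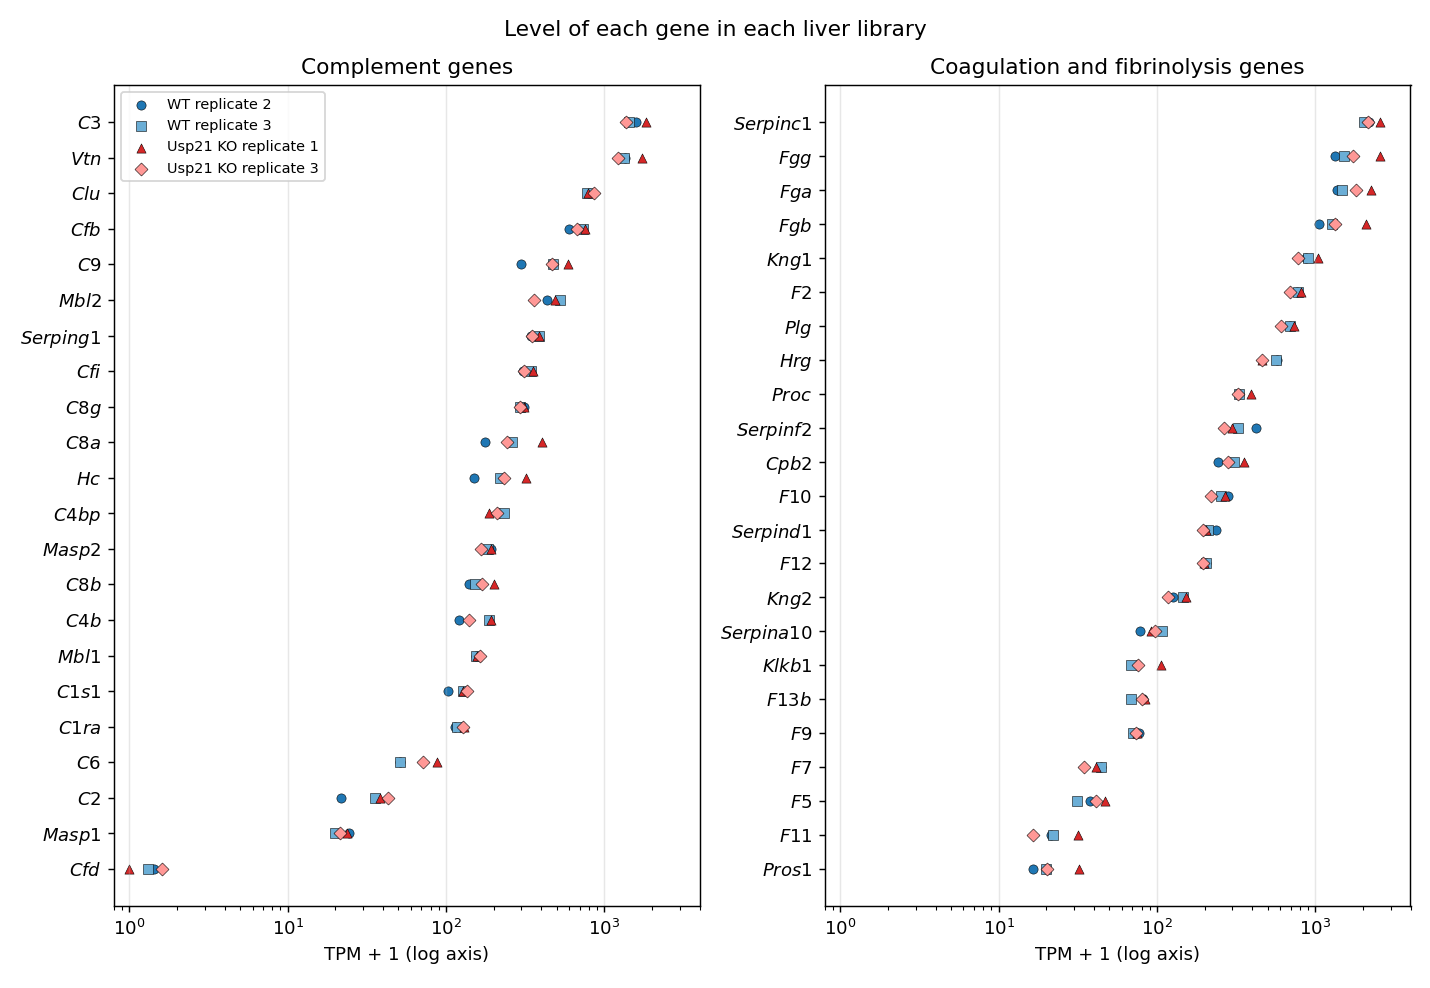
TPM + 1 on a log axis for each of the 22 complement genes (left) and 23 coagulation and fibrinolysis genes (right), 1 point per library, ordered by mean TPM. KO replicate 1 is the rightmost point for the 3 fibrinogen chains, and *Cfd* lies under 1 TPM.

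The complement genes spanned a wide range of levels. *C3*, the component at which all routes meet, was the most abundant, with 1577 and 1436 TPM in the WT livers and 1844 and 1381 TPM in the KO livers. *Vtn* (vitronectin, which blocks the membrane pore) followed with 1349 and 1324 TPM in the WT livers and 1725 and 1227 TPM in the KO livers. For both genes the 2 KO libraries enclosed the 2 WT libraries, so that no direction can be read. *Clu* (clusterin, another inhibitor of the pore) gave 803 and 774 TPM in the WT livers and 787 and 855 TPM in the KO livers, and *Cfb* (factor B, the protease of the alternative convertase) had 597 and 738 TPM in the WT livers and 757 and 675 TPM in the KO livers. At the other end, *Masp1*, a protease that travels with mannose-binding lectin, gave 23.6 and 19.0 TPM in the WT livers and 22.7 and 20.4 TPM in the KO livers. *Cfd* (factor D, which cuts factor B and is made mainly by fat cells) had 0.44 and 0.30 TPM in the WT mice, against 0.00 and 0.60 TPM in the KO mice and did not pass the filter of a mean of 1 TPM. At that level *Cfd* goes against the description of a gene made by liver. Of 6 fat cell markers, *Plin1*, *Lep* and *Retn* were at 0 in all libraries, *Adipoq* was at 0 in 3 libraries and at 0.22 TPM in KO replicate 3, and *Cidec* lay between 0.13 and 1.29 TPM. *Fabp4*, the 1 marker tested, had 4.61 and 9.47 TPM in the WT mice, against 15.4 and 9.91 TPM in the KO mice, with a log2 fold change of 0.80.

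Among the 21 complement genes tested, the median log2 fold change was 0.11, which lies under the 0.15 of all genes. In 6 genes both KO libraries lay above both WT libraries (*C1ra*, *Mbl1*, *C2*, *Hc*, *C6* and *C8b*), which is 28.6% of them, against 34.4% of all genes tested. In 1 gene (*C4bp*) they lay below, against 10.9% of all genes. With upper quartile scaling the corresponding numbers were 3 above and 6 below (14.3% and 28.6%, against 22.1% and 21.2% of all genes), and the number of fold changes above 0 went from 18 to 7 of 21. The summed TPM of the 22 genes was 7473 and 8027 in WT and 9288 and 7633 in KO, and the KO libraries enclosed the higher WT library.

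The terminal components held 3 of the 4 largest log2 fold changes among the complement genes. *C6* gave 50.1 and 50.3 TPM in the WT livers and 86.5 and 70.3 TPM in the KO livers. Its log2 fold change was 0.63 (95% interval 0.18 to 1.07, limma adjusted p = 0.464), and it lay between 0.48 and 0.77 when each library was left out in turn. *Hc*, the mouse gene for C5, whose larger fragment seeds the pore, gave 150 and 219 TPM in the WT livers and 318 and 233 TPM in the KO livers. The groups did not overlap, but KO replicate 3 and WT replicate 3 were close together. The log2 fold change of *Hc* was 0.58 (95% interval -0.07 to 1.23, limma adjusted p = 0.489). Leaving out WT replicate 2 or KO replicate 1 gave 0.31 and 0.36, and leaving out WT replicate 3 gave 0.85. With upper quartile scaling *C6* had 0.45 and *Hc* 0.41.

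C8 is built from 3 chains, α, β and γ, from 3 genes, and their values were not alike. *C8a* had 177 and 260 TPM in the WT mice, against 402 and 243 TPM in the KO mice, so the groups overlapped. *C8b* gave 138 and 151 TPM in the WT livers and 200 and 168 TPM in the KO livers, without overlap. *C8g*, whose product is a lipocalin bound to the α chain, was level, with 308 and 292 TPM in the WT livers and 312 and 295 TPM in the KO livers. The log2 fold changes were 0.54 for *C8a* (95% interval -0.23 to 1.32), 0.34 for *C8b* (-0.09 to 0.78) and 0.01 for *C8g* (-0.38 to 0.41), and limma's adjusted p was 0.543, 0.516 and 0.980. *C8a* went from 0.18 without KO replicate 1 and 0.27 without WT replicate 2 to 0.82 without WT replicate 3 and 0.91 without KO replicate 3. *C8b* was 0.22 without KO replicate 1 and 0.17 with upper quartile scaling. Within a library, where a common scaling cancels, *C8a* stood at 0.572 and 0.889 of *C8g* in WT and at 1.29 and 0.826 in KO. The KO libraries again enclosed a WT library, and KO replicate 1 was the 1 library in which *C8a* exceeded *C8g*. The corresponding ratio of *C8b* to *C8g* was 0.448 and 0.518 in WT and 0.643 and 0.571 in KO, which did not overlap. *C9*, the unit that polymerises into the pore, gave 296 and 476 TPM in the WT livers and 589 and 470 TPM in the KO livers, with a log2 fold change of 0.49. Leaving out WT replicate 2 or KO replicate 1 lowered it to 0.14 and 0.32, and leaving out WT replicate 3 raised it to 0.83.

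All 6 terminal genes had their highest value in KO replicate 1, against 45.9% of all genes tested, and 5 of them had their lowest value in WT replicate 2. Their median deviation from the gene's own mean over the 4 libraries was -0.43 and -0.03 on the log2 scale in WT replicates 2 and 3 and 0.43 and 0.06 in KO replicates 1 and 3. The larger part of the difference between the genotypes thus lay between 2 of the 4 mice. *C8a* and *C8b* are neighbours on mouse chromosome 4 (GRCm38, chr4:104766317-104876398), while *C8g* and *Hc* are far apart from each other on chromosome 2.

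Promoter sequence was available from RefSeq (GRCm38.p6) for 34 of the 45 members, 15 of complement and 19 of coagulation, and the 250 bases before each start were searched on both strands for short motifs of liver and acute phase factors. Members were counted by gene, with a match before any start of the gene, whereas shares over all promoters were counted by promoter entry. These units are unlike, so the numbers are not strictly comparable and enrichment was not tested. The core motif of HNF1, a hepatocyte factor, was searched as GTTAAT and occurred before 6 of 15 complement genes (*C1ra*, *C4bp*, *C8a*, *C8b*, *Hc* and *Vtn*), compared with 6.43% of 32851 promoters. The windows of *Hc*, *C8a* and *C8b* are shown because these are the terminal genes that carry it. They are written 5′ to 3′ on the strand of the gene, with the core motif in capitals, which reads ATTAAC where it lies on the other strand:
Hc chr2:35061469-35061498 (reverse strand): ctgacattaataATTAACcggagaactaat
C8a chr4:104876488-104876517 (reverse strand): ccttggttactaGTTAATcacattgaatgg
C8b chr4:104766099-104766128 (forward strand): tactttacctgtATTAACcctctaaccctg
A match to 6 letters is not a binding site, and *C4bp*, which carries the core motif too, was the complement gene with both KO libraries lowest. The HNF4 core motif CAAAGTC was found before 1 complement gene (*Vtn*) and 0 coagulation genes, compared with 3.84% of promoters.

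The convertase genes were less uniform. *C2*, the protease of the classical convertase, had 20.6 and 34.5 TPM in the WT mice, against 37.2 and 42.2 TPM in the KO mice, without overlap. The log2 fold change was 0.55 (95% interval -0.13 to 1.24, limma adjusted p = 0.512) and went from 0.91 without WT replicate 3 to 0.19 without WT replicate 2. *C4b*, whose product pairs with C2 in that convertase, had a log2 fold change of 0.13 with overlapping groups. *C4b*, *Cfb* and *C2* lie within 169886 bp of each other in the class III region of the MHC (chr17:34728380-34898265). Of all 31-base stretches in *Cfb* and *C2* transcripts, 75.5% and 40.8% are also in another expressed gene. The main partner of both is a read-through gene, *Gm20547*, listed with 7.20 and 0 TPM in the WT livers and 14.7 and 0 TPM in the KO livers. The split of reads among these 3 genes is therefore uncertain.

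The genes that start the cascade had small log2 fold changes, the largest being 0.20 in size. *C1ra* and *C1s1* encode the proteases of C1 and had log2 fold changes of 0.15 and 0.20. The lectins were *Mbl1*, with 153 to 163 TPM in all 4 libraries and a log2 fold change of 0.05, and *Mbl2*, with 436 and 524 TPM in the WT livers and 485 and 359 TPM in the KO livers with a log2 fold change of -0.20. That of *Mbl2* was 0.02 without KO replicate 3, so its sign rested on that mouse. *Masp2*, the protease that cuts C4 and C2 on the lectin pathway, had a log2 fold change of -0.07, and its exons overlap those of *Tardbp* on the opposite strand. The regulators *Cfi* and *Serping1* (factor I and the C1 inhibitor) had log2 fold changes of 0.03 and 0.01. *C4bp*, which speeds the decay of the classical convertase, gave 216 and 232 TPM in the WT livers and 187 and 208 TPM in the KO livers, with a log2 fold change of -0.18 that was -0.10 without KO replicate 1 and -0.35 with upper quartile scaling.

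Other complement genes were taken from a list of 28, of which 18 were tested; 2 had an unadjusted p under 0.05, both higher in KO, against 8.45% of all genes higher and 2.04% lower at that threshold, and 0 had an adjusted p under 0.05. *Cfhr2*, 1 of them, had 374 and 350 TPM in the WT mice, against 519 and 470 TPM in the KO mice, with a log2 fold change of 0.45 (limma adjusted p = 0.468). It kept a value of at least 0.38 when any 1 library was left out. The subunits of C1q come from macrophages and not from hepatocytes, and *C1qa* gave 47.8 and 56.4 TPM in the WT livers and 23.4 and 59.3 TPM in the KO livers. The low library was KO replicate 1, in which the Kupffer cell markers had a median deviation of -0.65 on the log2 scale, compared with 0.59 in KO replicate 3 and with 0.03 and 0.20 in WT replicates 2 and 3. All 10 of these markers were tested and none was at 0, and their summed level was 148 and 160 TPM in the WT livers and 101 and 200 TPM in the KO livers. *Cd5l*, the marker with the lowest log2 fold change (-0.70), was at 11.4 TPM in KO replicate 1 and between 37.3 and 45.5 TPM in the other libraries. Not all markers followed. *Slc40a1* was highest in KO replicate 1, at 38.0 TPM, and *Marco* was lowest in WT replicate 2, at 1.48 TPM against 2.11 TPM in KO replicate 1. The part of Kupffer cells in the C1q values was not tested.

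**Figure D2:**
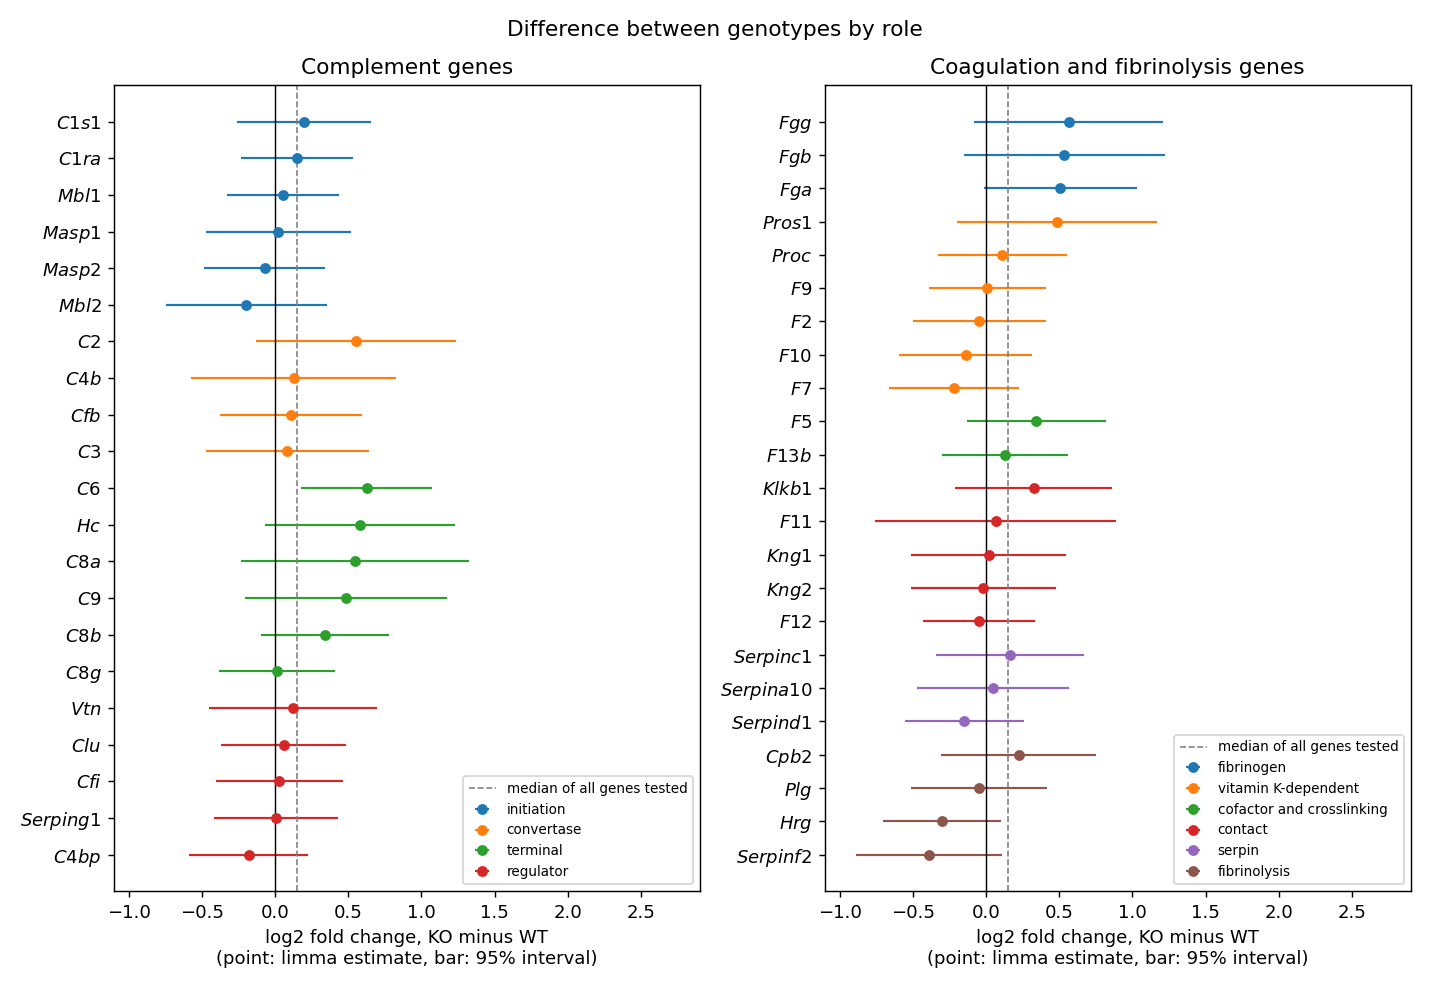
Log2 fold change (KO minus WT, on log2(TPM + 1)) of the 21 complement genes and 23 coagulation and fibrinolysis genes tested, grouped by role, with limma's 95% intervals and the median of all genes tested as a dashed line. The interval of *C6* alone leaves out 0, and the terminal complement genes and the fibrinogen chains hold most of the values above 0.5.

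The coagulation and fibrinolysis genes included the most abundant members. *Serpinc1* (antithrombin, the main inhibitor of thrombin) had 2178 and 2027 TPM in the WT mice, against 2548 and 2168 TPM in the KO mice. The 3 chains of fibrinogen came next. The least abundant were *Pros1* (protein S, the cofactor of activated protein C) and *F11* (factor XI). *F11* gave 20.5 and 21.03 TPM in the WT livers and 30.6 and 15.4 TPM in the KO livers, and its log2 fold change of 0.07 was -0.41 without KO replicate 1 and 0.54 without KO replicate 3.

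Over the 23 genes the median log2 fold change was 0.05, against 0.15 over all genes, and was -0.02 without KO replicate 1. In 6 genes both KO libraries lay above both WT libraries (*Fga*, *Fgb*, *Fgg*, *Pros1*, *F5* and *Klkb1*), which is 26.1% of them, against 34.4% of all genes tested. In 5 genes they lay below (*Serpinf2*, *Hrg*, *F7*, *Serpind1* and *F12*), or 21.7%, against 10.9% of all genes. Upper quartile scaling turned this into 4 above and 12 below (17.4% and 52.2%, beside the same all-gene shares of 22.1% and 21.2%), and fold changes above 0 went from 14 to 7 of 23. The balance of these genes above and below 0 therefore depended on how the libraries were scaled.

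Fibrinogen held the 3 largest log2 fold changes of the coagulation genes. *Fga* (α chain) gave 1365 and 1474 TPM in the WT livers and 2261 and 1799 TPM in the KO livers. *Fgb* (β chain) had 1056 and 1269 TPM in the WT mice, against 2106 and 1337 TPM in the KO mice. *Fgg* (γ chain) gave 1330 and 1530 TPM in the WT livers and 2584 and 1723 TPM in the KO livers. No chain had overlapping groups, and KO replicate 1 stood well above the rest, while KO replicate 3 was close to WT replicate 3 for *Fgb*. The log2 fold changes were 0.51 for *Fga* (95% interval -0.01 to 1.03), 0.54 for *Fgb* (-0.15 to 1.22) and 0.56 for *Fgg* (-0.08 to 1.21), with limma's adjusted p at 0.478, 0.516 and 0.495. Without KO replicate 1 they were 0.34, 0.21 and 0.27, without KO replicate 3 they were 0.67, 0.86 and 0.86, and without WT replicate 3 they were 0.56, 0.67 and 0.67. With upper quartile scaling they were 0.33, 0.36 and 0.39. The CPM table holds at most 3 reads of any of these 3 genes in a library and gives them negative values.

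The ratios between the chains did not separate the genotypes. *Fgg* stood at 0.974 and 1.04 of *Fga* in WT and at 1.14 and 0.958 in KO, and *Fgb* at 0.773 and 0.861 of *Fga* in WT and at 0.931 and 0.743 in KO, so that for both ratios the KO libraries enclosed the WT libraries. The summed TPM of the 3 genes was 3751 and 4273 in WT and 6950 and 4859 in KO, a mean of 4012 ± 369 (SD, n = 2) against 5904 ± 1480 (SD, n = 2) and a ratio of 1.47. An exact permutation test of 2 against 2 cannot give a p below 0.333, so no test was made of the sum. Fibrinogen accounted for most of the difference in the summed TPM of all 23 genes, which was 11089 and 11437 in WT and 14919 and 11592 in KO.

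*Fgg*, *Fga* and *Fgb* lie next to each other on mouse chromosome 3 (GRCm38, chr3:83007724-83049863), with *Fgb* on the reverse strand. In the 250 bases before their RefSeq starts, *Fga* and *Fgb* held the HNF1 core motif, a match to the C/EBP-like pattern TTNNGNAA (C/EBP factors are hepatocyte and acute phase regulators) and a match to the STAT3-like pattern TTCNNNGAA. A further C/EBP-like match of *Fgb*, 206 to 199 bases before its start, is not among the windows shown. *Fgb* and *Fgg* held CTGGGAA, the core of the IL-6 response element, a pattern that can share letters with TTCNNNGAA. The windows are shown because the 3 chains had similar fold changes. They are written 5′ to 3′ on the strand of the gene, with the matches in capitals:
Fga STAT3-like, chr3:83025909-83025938 (forward strand): aggcccccatTTCCTGGAAtgtagattccc
Fga C/EBP-like, chr3:83026007-83026036 (forward strand): gctacagagaaTTGAGCAAgagtttctggg
Fga HNF1 core motif, chr3:83026098-83026127 (forward strand): ccaagggtgatgATTAACctcctgccggtt
Fgb STAT3-like, chr3:83050006-83050035 (reverse strand): gactcaatgaTTCGAGGAAccccctgtgtc
Fgb IL-6 core and C/EBP-like, chr3:83049930-83049959 (reverse strand): gcttgCTGGGAAgatgTTGCTCAAatgata
Fgb HNF1 core motif, chr3:83049875-83049904 (reverse strand): aaaatgtcaaatATTAACtaaagggaggta
Fgg IL-6 core, chr3:83007694-83007723 (forward strand): aaacctgtgcgcaaaatCTGGGAAtccctc
The last window of *Fga* lies inside the GENCODE model of the gene, which begins before the RefSeq start. Among the 19 coagulation genes with an entry, the HNF1 core motif occurred before 3 (*F13b*, *Fga* and *Fgb*), against 6.43% of all promoters, the C/EBP-like pattern before 10, against 36.8%, the STAT3-like pattern before 4, against 7.02%, and the IL-6 core before 3, against 9.10%. For the 15 complement genes these numbers were 7 for the C/EBP-like pattern, 2 for the STAT3-like pattern and 2 for the IL-6 core. Here too, members were counted by gene and the shares by promoter entry.

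**Figure D3:**
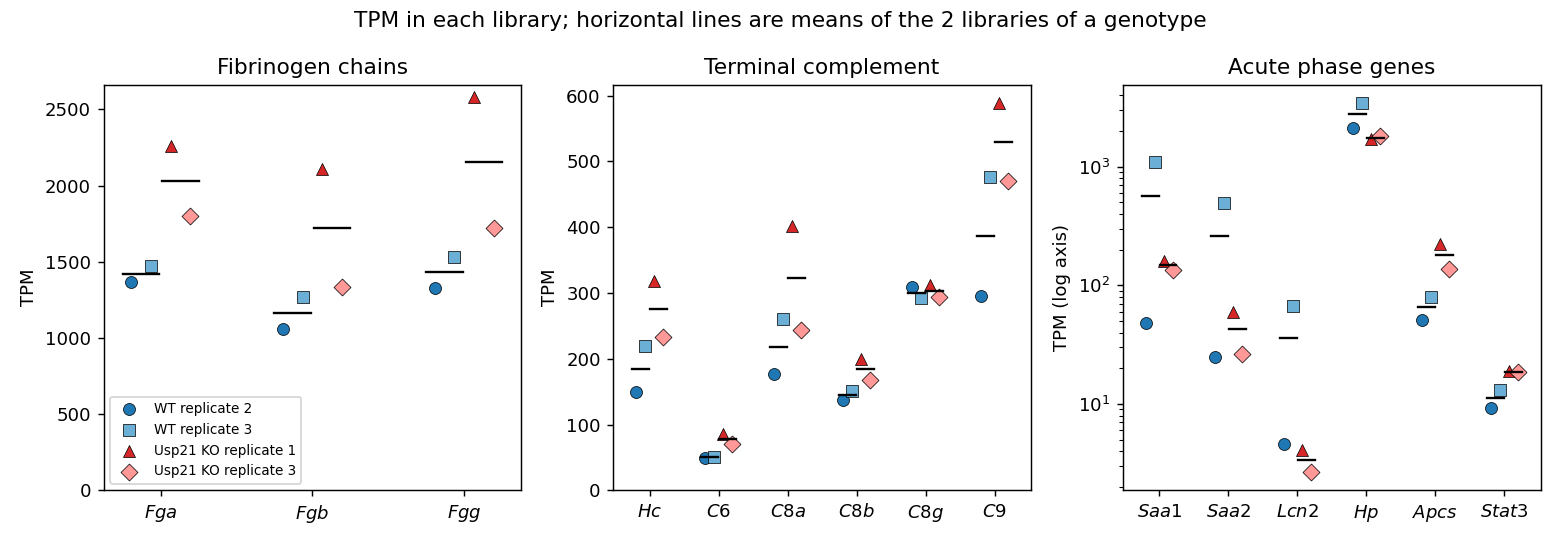
TPM in each library for the fibrinogen chains, the terminal complement genes (both on linear axes from 0) and 6 acute phase genes (log axis), with horizontal lines at the mean of the 2 libraries of a genotype. KO replicate 1 is highest for all 3 fibrinogen chains and all 6 terminal genes, while WT replicate 3 is highest for *Saa1*, *Saa2*, *Lcn2* and *Hp*.

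KO replicate 1 had the highest value of each fibrinogen chain. Among 18 acute phase and IL-6 signalling genes, WT replicate 3 was highest for 11 and KO replicate 1 for 4, *Apcs* among the latter. The list of acute phase and IL-6 signalling genes had 18 members tested, of which 4 had an unadjusted p under 0.05, all higher in KO, against 8.45% of all genes higher and 2.04% lower, and 0 an adjusted p under 0.05. WT replicate 3 held the highest value of *Saa2* (492 TPM, against 24.7 to 59.6 TPM elsewhere), *Orm2* (135 TPM, against 17.1 to 19.98 TPM), *Lcn2* (67.1 TPM, against 2.67 to 4.59 TPM) and *Socs3* (15.0 TPM, against 1.33 to 4.72 TPM). *Hp*, haptoglobin, gave 2109 and 3416 TPM in the WT livers and 1724 and 1798 TPM in the KO livers, and its log2 fold change of -0.61 was -0.26 without WT replicate 3. The fibrinogen chains in WT replicate 3 lay above WT replicate 2 and below both KO libraries. The neutrophil marker *S100a8* was at 29.1 TPM in WT replicate 3 and between 0.74 and 2.26 TPM in the other libraries. It was 1 of 2 tested among 10 lymphocyte and neutrophil markers, whose summed level was 45.1 TPM there and between 4.10 and 6.83 TPM elsewhere. *S100a9*, also tested, was at 12.7 TPM in WT replicate 3 and between 0.42 and 3.04 TPM elsewhere. These 2 genes made up most of the summed level in WT replicate 3, so the sum says little of the other markers. The neutrophil markers *Ngp* and *Camp* did not follow, with 0 TPM in WT replicate 3. The part of these differences in the fibrinogen values was not tested.

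Of that list, *Stat3*, the factor that relays IL-6, had 9.20 and 13.2 TPM in the WT mice, against 18.9 and 18.6 TPM in the KO mice, with a log2 fold change of 0.71 (limma adjusted p = 0.464). *Il6st*, the signalling subunit of the IL-6 receptor, gave 7.88 and 7.57 TPM in the WT livers and 10.7 and 12.7 TPM in the KO livers, with a log2 fold change of 0.53 (limma adjusted p = 0.472). *Stat3* was 0.47 without WT replicate 2. In both genes the KO values were the higher ones without overlap, as in 34.4% of all genes tested. *Il1r1*, a receptor for IL-1, gave 4.50 and 2.55 TPM in the WT livers and 10.8 and 7.38 TPM in the KO livers, with a log2 fold change of 1.17 (limma adjusted p = 0.464). *Apcs*, serum amyloid P, had 51.3 and 80.3 TPM in the WT mice, against 224 and 138 TPM in the KO mice, with a log2 fold change of 1.43 (limma adjusted p = 0.443). *Apcs* lies 1.61 Mb from *Usp21* on chromosome 1, and the KO allele was made in 129/Sv cells, so the deletion and the strain of the surrounding chromosome cannot be told apart for it. *Crp*, C-reactive protein, is closer still, at 1.41 Mb, and had a log2 fold change of -0.12 with overlapping groups. How far 129/Sv sequence extends was not tested. The nearest members are *F5*, at 7.06 Mb, and *Serpinc1*, at 10.3 Mb, while *F13b* and *C4bp* are 31.8 and 40.6 Mb away.

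Among 15 liver transcription factors, 2 had an unadjusted p under 0.05, both higher in KO, against 8.45% of all genes higher, and 0 an adjusted p under 0.05. Their log2 fold changes ran from -0.30 to 1.35, with 10 above 0 and 5 below. *Hnf4a*, a nuclear receptor that drives many clotting genes in hepatocytes, gave 112 and 105 TPM in the WT livers and 171 and 155 TPM in the KO livers, with a log2 fold change of 0.59 (limma adjusted p = 0.464). *Onecut1*, also known as HNF6, gave 2.41 and 1.45 TPM in the WT livers and 10.5 and 3.73 TPM in the KO livers, with a log2 fold change of 1.35 (limma adjusted p = 0.464). *Foxa1*, a pioneer factor of liver genes, had 2.54 and 1.61 TPM in the WT mice, against 8.97 and 3.01 TPM in the KO mice. All 3 had their highest value in KO replicate 1. *Onecut1* was 0.71 without KO replicate 1.

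The vitamin K-dependent proteins receive their calcium-binding residues from γ-glutamyl carboxylase. *F2*, the gene of prothrombin, gave 766 and 783 TPM in the WT livers and 816 and 690 TPM in the KO livers, with a log2 fold change of -0.05. The KO libraries enclosed the WT libraries. *F7* (factor VII, which starts coagulation together with tissue factor) gave 43.1 and 43.3 TPM in the WT livers and 40.4 and 33.8 TPM in the KO livers, with a log2 fold change of -0.22 that was -0.34 without KO replicate 1 and -0.09 without KO replicate 3. *F10*, its neighbour within 30643 bp on chromosome 8, and *F9* (factors X and IX) had -0.14 and 0.01. *Pros1* had 15.6 and 19.0 TPM in the WT mice, against 31.03 and 19.3 TPM in the KO mice, and its log2 fold change of 0.49 was 0.16 without KO replicate 1, 0.82 without KO replicate 3 and 0.32 with upper quartile scaling. *Proc*, the gene of protein C, had 0.11. The carboxylase *Ggcx* and 7 other genes of the vitamin K cycle and of factor secretion were all tested. Of these, 0 had an unadjusted p under 0.05, against 8.45% of all genes higher and 2.04% lower. Their median log2 fold change was 0.09, against 0.15 over all genes. *Ggcx* had the largest log2 fold change of this list, 0.29, with 17.3 and 12.2 TPM in the WT livers and 19.9 and 16.3 TPM in the KO livers, with overlapping groups.

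*F5* (factor V, the cofactor of factor Xa) gave 37.0 and 30.4 TPM in the WT livers and 45.7 and 40.1 TPM in the KO livers, with a log2 fold change of 0.34 (95% interval -0.13 to 0.82, limma adjusted p = 0.534). It was 0.21 without WT replicate 3 and 0.18 with upper quartile scaling. *F13b*, which encodes the carrier chain of the fibrin-crosslinking factor XIII, had 0.13 with overlapping groups. In the contact system, *F12* (factor XII) had -0.05. *Klkb1* (plasma prekallikrein) gave 73.3 and 67.4 TPM in the WT livers and 105 and 74.5 TPM in the KO livers, and its log2 fold change of 0.33 was 0.08 without KO replicate 1, 0.57 without KO replicate 3 and 0.15 with upper quartile scaling. Its neighbour *F11* had 0.07, with overlapping groups. *Kng1* and *Kng2*, which encode kininogens, had log2 fold changes of 0.02 and -0.02, and *Kng2* stood at 0.143 and 0.160 of *Kng1* in WT and at 0.145 and 0.150 in KO. Of the 31-base stretches of these 2 genes, 26.5% and 30.6% are also in another expressed gene. The main partner of each is the other kininogen gene, so their split is uncertain.

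The inhibitors of fibrinolysis included the lowest log2 fold changes. *Serpinf2* (α2-antiplasmin, which inactivates plasmin) had 421 and 324 TPM in the WT mice, against 299 and 266 TPM in the KO mice. *Hrg* (histidine-rich glycoprotein, a plasma protein that binds plasminogen and heparin) gave 570 and 566 TPM in the WT livers and 457 and 463 TPM in the KO livers. The KO values were the lower ones without overlap for each gene, and for *Hrg* the libraries of a genotype lay close together. The log2 fold changes were -0.39 for *Serpinf2* (95% interval -0.89 to 0.11, limma adjusted p = 0.516) and -0.30 for *Hrg* (95% interval -0.71 to 0.10, limma adjusted p = 0.522). That of *Hrg* lay between -0.31 and -0.29 when any 1 library was left out, and that of *Serpinf2* between -0.58 and -0.20. *Hrg* is the neighbour of *Kng2* and *Kng1* on chromosome 16 (chr16:22951072-23082078). *Plg*, the gene of plasminogen, gave 689 and 692 TPM in the WT livers and 738 and 605 TPM in the KO livers, and *Cpb2*, whose product trims fibrin and slows its lysis, had a log2 fold change of 0.22. The heparin-dependent thrombin inhibitor *Serpind1* had -0.15, and *Serpina10*, which inhibits factor Xa together with protein Z, had 0.05.

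Of 25 other coagulation genes, made in part by endothelium and blood cells, 11 were tested and 1 had an unadjusted p under 0.05, higher in KO, against 8.45% of all genes. This was *Anxa2* (annexin A2, a surface receptor for plasminogen and its activator), with 3.29 and 3.03 TPM in the WT livers and 6.97 and 7.06 TPM in the KO livers, with a log2 fold change of 0.95 (limma adjusted p = 0.453). It lay between 0.90 and 0.99 when each library was left out. Its partner *S100a10* had 140 and 145 TPM in the WT mice, against 107 and 156 TPM in the KO mice. *Tfpi*, the inhibitor of the tissue factor pathway, gave 1.34 and 0.52 TPM in the WT livers and 1.36 and 2.02 TPM in the KO livers, near the filter, with a log2 fold change of 0.50.

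**Figure D4:**
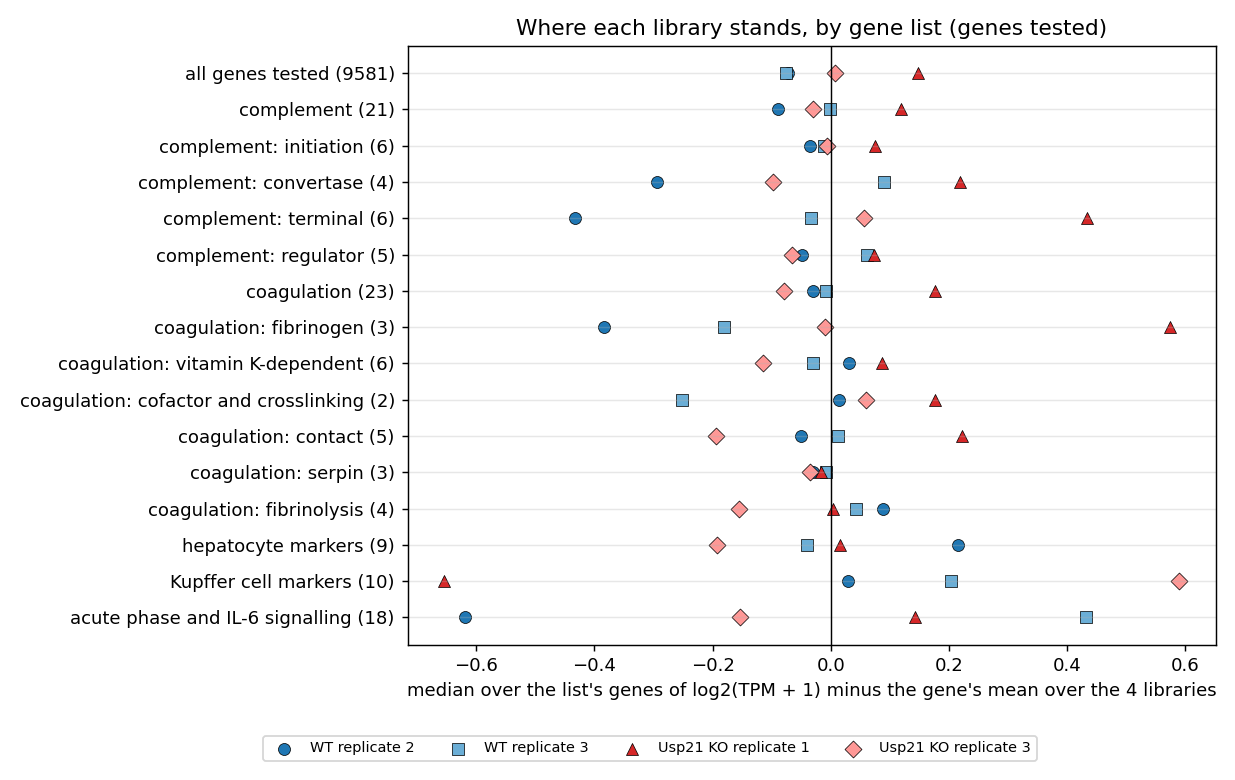
Median deviation of each library from the gene's mean over the 4 libraries, on log2(TPM + 1), for all genes tested, the complement and coagulation genes and their roles, and 3 other lists, with the number of genes tested in parentheses. KO replicate 1 stands highest for the terminal complement genes and the fibrinogen chains, and lowest for the Kupffer cell markers.

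KO replicate 1 held the highest value of 27 of the 44 members, or 61.4%, against 45.9% of all genes tested. By group, it was highest for 12 of 21 complement genes and 15 of 23 coagulation genes. The members' median deviation was 0.13 on the log2 scale in KO replicate 1 and -0.06 in KO replicate 3, and -0.05 and -0.01 in WT replicates 2 and 3. By this measure KO replicate 3 lay beside WT replicate 2, and KO replicate 1 above the other 3 libraries. The hepatocyte markers did not share the position of KO replicate 1, with median deviations of 0.02 and -0.19 in KO replicates 1 and 3 and 0.22 and -0.04 in WT replicates 2 and 3. Of the markers of other cells, the 7 stellate cell markers tested of 10 had a median log2 fold change of 0.52, 6 of them were highest in KO replicate 1, and the summed level was 135 and 95.7 TPM in the WT livers and 197 and 132 TPM in the KO livers. The 10 sinusoidal endothelial markers had a median of 0.20, with 4 highest in KO replicate 1. Of 7 cholangiocyte markers 2 were tested, with a median of 0.74 and both highest in KO replicate 1: *Spp1* had 13.2 and 12.7 TPM in the WT mice, against 33.4 and 20.7 TPM in the KO mice, and *Sox9* 0.64 and 1.88 TPM, against 2.41 and 1.84 TPM. The part of these cells in the members' values was not tested.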

How the data were processed

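RNA was extracted with ISOGEN II from 2 WT livers (replicates 2 and 3) and 2 KO livers (replicates 1 and 3) and sequenced on an Illumina MiSeq. The authors estimated abundances with salmon on mm10 and deposited TPM per gene. The authors also counted aligned reads per gene with HTSeq and deposited TMM-normalized CPM, a signal scaled to effective library size. Tool versions, the annotation release and the strand setting are not given in the sources used here. The log-transformed copies of both tables were not used.

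Samples were grouped by their titles. The 9581 genes whose TPM averaged 1 or more were tested on log2(TPM + 1), KO minus WT, two-sided, with limma 3.58.1 (lmFit, and eBayes with a trend; prior degrees of freedom 3.62) in R 4.3.3, with Benjamini-Hochberg adjustment over all of them and 95% intervals. *Cfd* was fitted without the filter. Nothing says whether the mice of a genotype shared a litter, and no batch is given, so no covariate entered. Read numbers were recovered from the CPM table, in which 1 read is worth 6.68 to 9.22 CPM and 100% of values were whole within 0.02 reads. That table lists 428 of 686 abundant genes (100 TPM or more throughout) at 0. Counts in that table were also tested with edgeR 4.0.16 (quasi-likelihood) and DESeq2 1.42.0. The scripts were tested on simulated data.

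Full values are given for the 4 most and 2 least abundant genes of each system, genes with an unadjusted p under 0.05, the 4 largest absolute log2 fold changes of each system and the subunits of fibrinogen and C8, and other members by single values. *C9*, *C4bp*, *Mbl2*, *Serpinf2*, *Hrg*, *F5*, *Klkb1*, *F7*, *F2*, *Plg*, *S100a10* and the acute phase genes were described in full after their values were seen. The members, the gene lists and the tests were chosen with earlier results of these data known. Coordinates are those of GENCODE M21 (GRCm38), neighbours are genes within 200000 bp, and shared stretches of 31 bases were counted against the transcripts of all expressed genes. *C4a*, *Tf* and *Xist* were not analysed here. Some other complement genes are not reported here. Alternatives tried were a pseudocount of 0.1 or 5, a filter at 5 TPM or none, upper quartile scaling, variances without moderation, the CPM table, both count tests and each library left out.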

Additional observations from a re-analysis of the deposited data

How the results depend on the processing

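No paired analysis was possible because the genotypes share only replicate number 3. The number of called genes was 0 in complement and 0 in coagulation under every alternative, but without moderation and without any 1 library 0 of all 9581 genes were called, so those settings say nothing of stability, and the others called 1 to 12 of all genes. In the CPM table and both count tests no member had more than 10 reads in a library, so a 0 there says little too. The summed TPM ratios (KO to WT) of 1.09 and 1.18 were 1.06 and 1.14 when the 10 most abundant genes were left out of the total. The median log2 fold change was -0.067 for complement and -0.13 for coagulation with upper quartile scaling, in which the median of all genes went from 0.15 to 0.00, and -1.56 and -1.08 in the CPM table. Without KO replicate 1 the medians were 0.02 and -0.02. The number of genes whose groups did not overlap, 7 in complement and 11 in coagulation, was 3 and 2 in the CPM table. The share over all genes was not taken in that table, so these numbers cannot be read as a drop. When a library was left out the numbers ran from 12 to 16 and from 15 to 20. Leaving out a library by construction leaves fewer values to overlap: over all genes tested the share was 45.3% with 4 libraries and 70.2% to 76.9% with 3.

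With upper quartile scaling, fold changes above 0 went from 18 to 7 of 21 complement genes and from 14 to 7 of 23 coagulation genes. Only part of the members were followed singly under the alternatives, so the lists below leave out other members that turned. Among the genes followed, upper quartile scaling turned the sign of the log2 fold change of *C3* (-0.089), *C8g* (-0.16), *Cfb* (-0.067), *Clu* (-0.12), *F11* (-0.10), *Masp1* (-0.14), *Serpinc1* (-0.012) and *Vtn* (-0.051). When each library was left out in turn, the lowest and highest values were -0.12 (without KO replicate 1) and 0.29 for *C3*, -0.027 (without KO replicate 1, and negative without WT replicate 3) and 0.054 for *C8g*, -0.046 (without WT replicate 2) and 0.26 for *Cfb*, -0.0015 (without KO replicate 3) and 0.12 for *Clu*, -0.41 (without KO replicate 1) and 0.54 for *F11*, -0.13 (without WT replicate 3, and negative without KO replicate 1) and 0.17 for *Masp1*, -0.12 (without KO replicate 1) and 0.37 for *Vtn*, and -0.41 and 0.020 (without KO replicate 3) for *Mbl2*. In the CPM table it turned for *Clu* (-1.67), *Fga* (-2.50), *Fgb* (-0.36), *Fgg* (-0.54), *Hc* (-2.42), *Masp1* (-2.02), *Vtn* (-3.70) and *Stat3* (-0.20). With edgeR on its reads it turned for *C3* (-0.081), *Clu* (-2.37), *Fga* (-1.86), *Fgb* (-0.46), *Fgg* (-0.62), *Hc* (-3.77), *Masp1* (-3.21), *Vtn* (-3.76), *Stat3* (-0.10) and *Il6st* (-0.081), and with DESeq2 for *C3* (-0.074), *Clu* (-1.68), *Fga* (-2.11), *Fgb* (-0.41), *Fgg* (-0.66), *Hc* (-3.29), *Masp1* (-2.42), *Vtn* (-3.20), *Stat3* (-0.29) and *Il6st* (-0.074). No member has more than 10 reads in a library of that table, and that limits what it can show. The cause of the difference between the tables was not tested. Of the other alternatives for single genes, 365 kept the direction and the side of the threshold. Part of that count was fixed in advance. The filters and the lack of moderation cannot change a log2 fold change, and without moderation or without any 1 library no gene at all was called.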
